A study of Mus musculus with 4 samples.

Results

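The 8 genes described here encode the secreted mucus proteins and helpers of goblet cells, the mucus-producing cells of the gut lining. They are Muc2, Fcgbp, Clca1, Zg16, Agr2, Tff3, Reg4 and Spink4, chosen by name, and all 8 were measured among 22180 genes. Each gene is represented by the probe set that lists only that gene and has the highest mean over the 4 arrays of the study. Levels are log2 values as deposited, so a difference of 1 is a 2-fold difference, and levels are compared between arrays for the same gene only. Muc2 had a second probe set, and the other 7 genes had a single one.

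Each of the 4 groups was 1 Affymetrix array. The first group was colon intraepithelial lymphocytes (IEL, lymphocytes lodged between epithelial cells) of mice that drank vancomycin (0.05%), ampicillin (0.01%), neomycin (0.01%) and metronidazole (0.05%) for 7 days and then regained bacteria over 7 days. The labels give the route of recolonization both as co-housing and as bedding of untreated littermates. The other groups came from unmanipulated mice and were colon IEL, small intestinal IEL and T cells labelled as colon lamina propria, the tissue beneath the epithelium. All mice were C57Bl/6 of 8 to 10 weeks. Mice were pooled, 10 in number (5 male and 5 female). The labels give that number both in total and per sample, so the number behind each array is not settled. Epithelial fractions were shaken loose in EDTA and the lamina propria was digested with collagenase afterwards. All 4 samples went through negative magnetic selection of T cells, with an anti-EpCAM antibody added against epithelial cells. With 1 array per group there is no replicate spread, no test and no p-value, and whether the arrays shared mice is not given.

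Goblet cells secrete the gel-forming mucin MUC2, which is folded and joined into polymers in the endoplasmic reticulum (ER) and Golgi, coated with O-linked sugars and released as a gel. In the colon this gel keeps bacteria away from the epithelium, whereas in the small intestine it is thinner and looser. Other goblet cell products build, cut or decorate the gel, and the fate of the cells is set by transcription factors such as ATOH1, SPDEF and KLF4. T cells are not known as a source of these proteins.

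Marker genes placed epithelial RNA on every array. The 12 pan-epithelial markers (among them Epcam, Cdh1 and Krt8) were all at or above the array's median gene level on each array. Their median level was 5.44 on the recolonized array, 4.40 on that of unmanipulated colon IEL, 6.26 on that of small intestinal IEL and 8.42 on the array labelled LP, called the LP-labelled array below. The 9 measured T cell markers had median levels of 7.04, 6.48, 5.95 and 2.41 in the same order. The T cell receptor subunit gene Cd3e was at 9.43, 9.17 and 9.49 on the first 3 of these arrays and at 3.72 on the last. That array therefore went against its label of lamina propria T cells. The comparisons among the 3 IEL arrays do not use it.

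The sequence before the transcription start is shown for the 4 of the 8 genes that the RefSeq promoter table (GRCm38.p6) holds. As deposited, all 4 were highest on the LP-labelled array and lowest in unmanipulated colon IEL. Between recolonized and small intestinal IEL the direction was not shared, with Muc2 higher and the others lower in recolonized colon IEL. A link between sequence and level was not tested. Each stretch runs 5′ to 3′ on the gene's strand from base −120 to base −1. Capitals mark letters that match 1 of 5 short motifs on either strand. The E-box motif is CAGCTG. The forkhead factor motif is TGTTTNC. The GATA factor motif is AGATAA. The TATA-like motif is TATAAN. The KLF factor motif is CACCC. These motifs were chosen with the sequences in view, and some matches overlap.
Muc2 (chr7:141690220-141690339, plus strand): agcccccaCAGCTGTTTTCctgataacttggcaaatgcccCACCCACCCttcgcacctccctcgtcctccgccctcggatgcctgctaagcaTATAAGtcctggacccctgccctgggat
Fcgbp (chr7:28071116-28071235, plus strand): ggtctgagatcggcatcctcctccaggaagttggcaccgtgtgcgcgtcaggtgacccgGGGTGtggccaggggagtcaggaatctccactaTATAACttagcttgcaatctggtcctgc
Reg4 (chr3:98222036-98222155, plus strand): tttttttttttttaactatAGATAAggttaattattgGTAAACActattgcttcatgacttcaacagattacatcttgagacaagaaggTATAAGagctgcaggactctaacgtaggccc
Agr2 (chr12:35992805-35992924, plus strand): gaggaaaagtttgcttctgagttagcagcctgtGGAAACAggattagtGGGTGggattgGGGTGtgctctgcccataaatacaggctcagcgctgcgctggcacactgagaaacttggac

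A TATA-like match on the gene's own strand began at base −28 in Muc2 and Fcgbp and at base −31 in Reg4. Of all 32851 promoters in the table, 3.17% had such a match beginning between bases −35 and −20. In Muc2 the E-box (bases −112 to −107) ran into the forkhead match (bases −108 to −102). Over the whole window of 250 bases before to 50 after the start, a forkhead match was present in 3 of the 4 genes and in 20.5% of all promoters. The E-box was present in 2 of 4 (Muc2 and Fcgbp) against 16.3% of all promoters, and the GATA match in 2 of 4 (Reg4 and Muc2) against 11.2%. The TATA-like motif at any position was present in 3 of 4 against 24.8%, and the KLF motif in 3 of 4 against 57.5%. A match describes the letters of the window and not the binding of a factor.

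All 8 genes were highest on the LP-labelled array and lowest on the array of unmanipulated colon IEL. Of the 13733 genes at or above the median level of their brightest array, 24.9% showed that pattern. After quantile normalization it held for 5 of the 8 genes, against 14.8% of the 13815 genes then at or above that level. Clca1 and Agr2 were then not lowest on the unmanipulated colon IEL array, and Tff3 was neither lowest there nor highest on the LP-labelled array. The genes differed in how far apart the arrays were. The distance from the lowest to the highest array was 174-fold for Reg4, 50.02-fold for Fcgbp, 37.3-fold for Spink4 and 23.4-fold for Muc2. The level of Reg4 in unmanipulated colon IEL was slightly below that array's 75th percentile of gene levels. If that level is background, which was not tested, the 174-fold of Reg4 is a lower bound. The distance was 14.5-fold for Agr2, 4.81-fold for Clca1, 4.70-fold for Zg16 and 2.35-fold for Tff3.

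**Figure D1:**
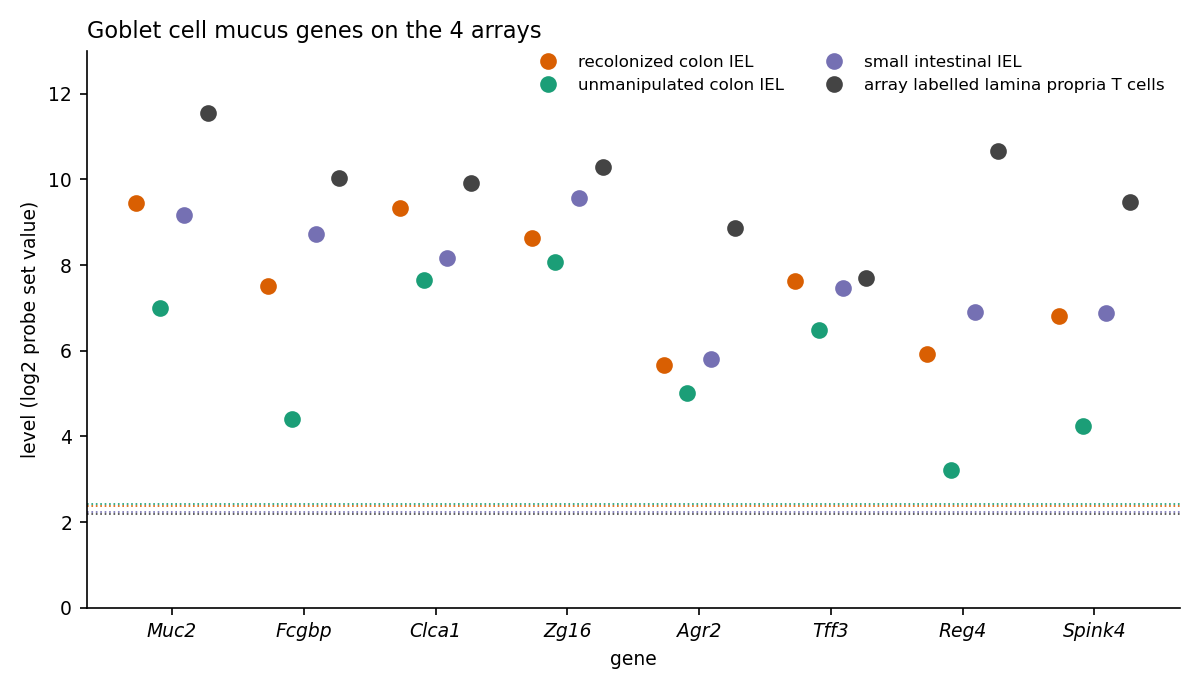
Level (log2 probe set value, vertical axis) of each of the 8 goblet cell mucus genes (horizontal axis) on the 4 arrays, 1 point per array, with dotted lines at each array's median gene level. Unmanipulated colon IEL give the lowest point and the LP-labelled array the highest point for every gene, and the 4 points of Tff3 lie within 2.35-fold.

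Muc2, the structural mucin, was at 9.45 in recolonized colon IEL, 7.00 in unmanipulated colon IEL, 9.16 in small intestinal IEL and 11.55 on the LP-labelled array. Its recolonized and small intestinal levels were 0.29 apart. That is less than the SD of 0.545 over 57 ribosomal protein genes between those arrays, a yardstick used here in place of replicates. The ribosomal genes were themselves higher on the recolonized array, by a median of 0.63 over small intestinal IEL and 0.43 over unmanipulated colon IEL. Their medians in the other pairs of arrays lay between −0.28 and 0.21. The SD takes no account of such shifts. The second probe set of Muc2 was at 8.75, 6.23, 8.37 and 10.93 in the same order. Both probe sets gave the same order of arrays, and recolonized minus unmanipulated colon IEL was 2.51 with the second against 2.45 with the first.

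Fcgbp encodes a large protein that joins the MUC2 network. It was at 7.50 in recolonized colon IEL, 4.395 in unmanipulated colon IEL, 8.72 in small intestinal IEL and 10.04 on the LP-labelled array. All neighbouring levels of Fcgbp were farther apart than the ribosomal SD, and unmanipulated colon IEL stood 3.11 below the next array.

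Clca1 encodes a secreted metalloprotease that acts on the mucus gel. It was at 9.34 in recolonized colon IEL, 7.64 in unmanipulated colon IEL, 8.17 in small intestinal IEL and 9.90 on the LP-labelled array. For Clca1 the recolonized level was the nearest to the top, and the small intestinal level was nearer to unmanipulated colon IEL.

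Zg16 encodes a lectin-like mucus protein that binds Gram-positive bacteria. It was at 8.63 in recolonized colon IEL, 8.06 in unmanipulated colon IEL, 9.56 in small intestinal IEL and 10.29 on the LP-labelled array. Zg16 and Clca1 thus placed the small intestinal array on opposite sides of the recolonized one. The recolonized and unmanipulated levels of Zg16 were 0.57 apart, within the ribosomal SD of 0.58 for those arrays.

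Agr2 encodes an ER protein of the disulfide isomerase family that mouse goblet cells need to make MUC2. It was at 5.66 in recolonized colon IEL, 5.01 in unmanipulated colon IEL, 5.80 in small intestinal IEL and 8.87 on the LP-labelled array. The 3 IEL arrays lay close together for Agr2, and the LP-labelled array stood 3.07 above the next.

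Tff3 encodes a small trefoil peptide secreted with mucus that takes part in repair of the epithelium. It was at 7.63 in recolonized colon IEL, 6.48 in unmanipulated colon IEL, 7.47 in small intestinal IEL and 7.71 on the LP-labelled array. The upper 3 arrays could not be told apart by the ribosomal yardstick, with gaps of 0.08 and 0.16.

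Reg4 encodes a secreted protein of the Reg lectin family that also marks deep crypt secretory cells of the mouse colon. It was at 5.92 in recolonized colon IEL, 3.21 in unmanipulated colon IEL, 6.90 in small intestinal IEL and 10.65 on the LP-labelled array. Its level in unmanipulated colon IEL lay between that array's median gene level of 2.41 and its 75th percentile of 3.27. The LP-labelled array stood far above the others.

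Spink4 encodes a protein of the Kazal-type serine protease inhibitor family. It was at 6.81 in recolonized colon IEL, 4.24 in unmanipulated colon IEL, 6.87 in small intestinal IEL and 9.46 on the LP-labelled array. The recolonized and small intestinal levels of Spink4 were 0.07 apart. Of the 24 gaps between neighbouring arrays over the 8 genes, 6 were smaller than the ribosomal SD, namely 2 for Tff3 and 1 each for Muc2, Zg16, Agr2 and Spink4. A wider yardstick is the SD between the differences given by both probe sets of the 968 genes that have a pair. By that yardstick 11 of the 24 gaps were too small to tell the arrays apart. The further 5 were both outer gaps of Clca1, the gap of Tff3 above unmanipulated colon IEL, that of Agr2 above unmanipulated colon IEL and the uppermost gap of Zg16.

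Recolonized colon IEL were set against unmanipulated colon IEL. All 8 genes were higher on the recolonized array, 6 of them by 2-fold or more, and 6.04% of the 12443 genes above the level floor were higher by that much and 3.06% lower. The floor requires a gene to reach the array's median gene level on the brighter array of a pair. The median difference of the 8 genes was 2.07, against 0.13 for all genes above the floor. Fcgbp differed most, by 3.11 (8.62-fold), followed by Reg4 with 2.71, Spink4 with 2.57 and Muc2 with 2.45. Clca1 differed by 1.70 and Tff3 by 1.15. Agr2 (0.64) and Zg16 (0.57) were within 2-fold. All 8 signs held under quantile normalization, centring on the median and a lowess correction for the mean level. Under the lowess correction the median was 1.52 and Zg16 was at 0.02.

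Some markers of other epithelial cells were also higher in recolonized colon IEL. The counts below stand beside shares of 6.04% higher and 3.06% lower by 2-fold or more over all genes above the floor. For the 12 pan-epithelial markers the median difference was 0.82, with 5 of 12 higher by 2-fold or more and 0 lower. Epcam was at 5.91 against 4.28, Cdh1 at 6.46 against 4.61 and Krt8 at 7.44 against 6.80. The 9 measured colonocyte markers had a median difference of 2.10, with 5 higher and 0 lower. Car1, a carbonic anhydrase of colonocytes, was at 8.33 against 7.49. Of the goblet cell genes, 6 of 8 differed by more than the pan-epithelial median and 4 of 8 by more than the colonocyte median. The enterocyte markers of the small intestine had a median of 0.75, with 3 of 9 above the floor higher and 0 lower. Of the Paneth cell markers 2 of 8 were higher and 1 lower. Of the enteroendocrine markers 1 of 7 was higher, and of the tuft cell markers 0 of 2 passed 2-fold. The T cell markers had a median difference of 0.55, with 1 of 9 higher. B and plasma cell markers had a median of −1.67, with 3 of 4 above the floor lower, and of the stromal markers 3 of 6 were higher and 3 lower. The part of these markers in the result was not tested. In pooled samples, a different share of epithelial cells, of goblet cells among them and a different amount of RNA per cell cannot be told apart. Neither can the antibiotics and the return of bacteria.

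**Figure D2:**
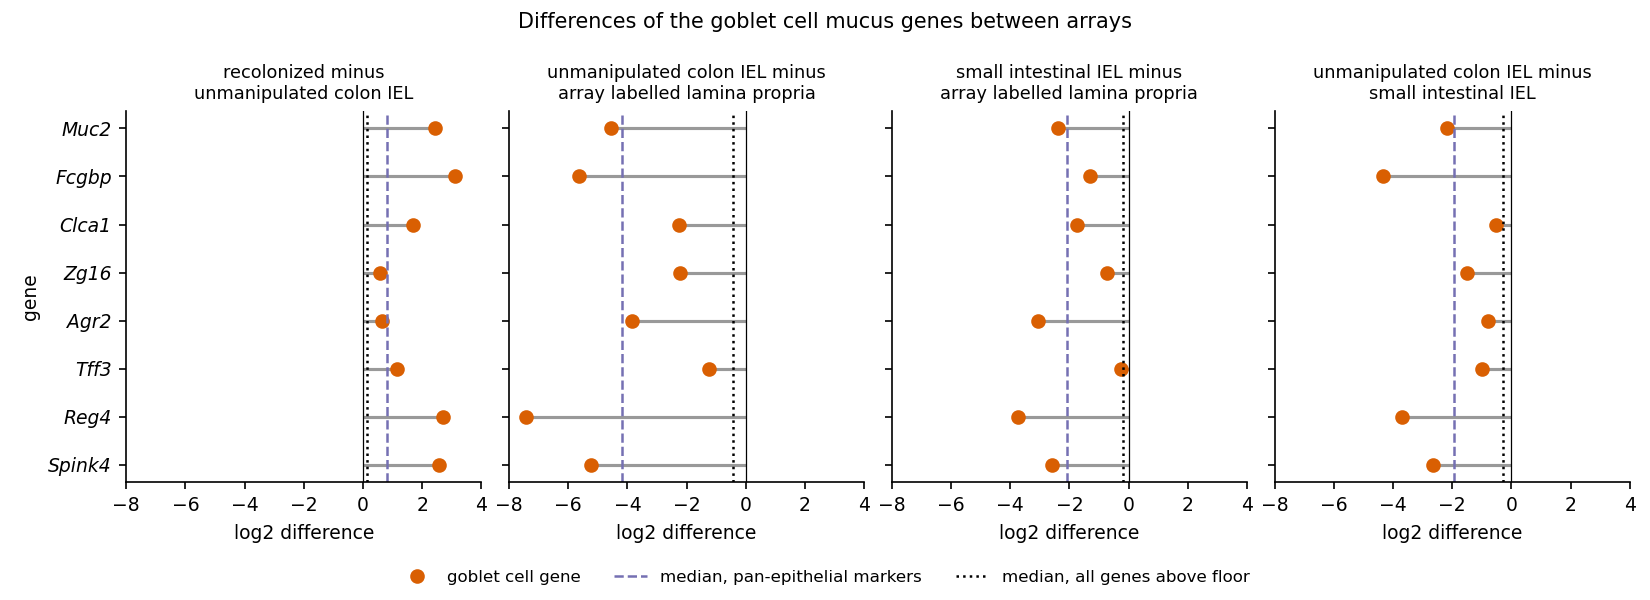
Log2 difference (horizontal axis) of each goblet cell mucus gene (rows) in 4 comparisons of arrays (panels), with the median of the 12 pan-epithelial markers (dashed) and of all genes above the floor (dotted). All 8 points lie above 0 for recolonized against unmanipulated colon IEL (median 2.07) and below 0 in the other 3 panels (medians −4.20, −2.06 and −1.83).

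Unmanipulated colon IEL were set against the LP-labelled array. All 8 genes were lower in colon IEL by 2-fold or more, and 34.7% of the 12788 genes above the floor were lower by that much and 10.5% higher. The median difference was −4.20, against −0.44 for all genes above the floor. With the floor raised to the 75th percentile, the median of all genes was −1.16. Reg4 differed by −7.44, Fcgbp by −5.64, Spink4 by −5.22, Muc2 by −4.55 and Agr2 by −3.85. Clca1 (−2.26), Zg16 (−2.23) and Tff3 (−1.23) differed least. The sign of Tff3 turned under the lowess correction, to 0.08, and Tff3 was at −0.07 after quantile normalization. The pan-epithelial markers had a median of −4.19, with 12 of 12 lower, and 4 of the goblet cell genes lay above it and 4 below. The colonocyte median was −4.99.

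With recolonized in place of unmanipulated colon IEL, the median difference from the LP-labelled array was −2.32. Of the 8 genes 6 were then lower by 2-fold or more, against 30.3% of genes above the floor, while 9.41% were higher. Clca1 (−0.56) and Tff3 (−0.08) were within 2-fold in that pair. Reg4 (−4.73) and Agr2 (−3.21) differed most.

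Small intestinal IEL were set against the same array. Of the 8 genes 6 were lower in small intestinal IEL by 2-fold or more, against 15.7% of the 12164 genes above the floor, while 8.76% were higher. The median difference was −2.06, against −0.17 for all genes. Reg4 differed by −3.75, Agr2 by −3.07, Spink4 by −2.59, Muc2 by −2.39, Clca1 by −1.73 and Fcgbp by −1.32. Zg16 (−0.73) and Tff3 (−0.24, or 0.09 after the lowess correction) were within 2-fold. The pan-epithelial median was −2.08, and again 4 of the 8 genes lay on each side of it. Enterocyte markers of the small intestine ran the other way, with a median of 3.9999 and 12 of 12 higher. Sis, the brush border enzyme sucrase-isomaltase, was at 9.53 against 4.82. Colonocyte markers had a median of −4.48, and Car1 was at 1.49 against 11.53.

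Unmanipulated colon IEL were set against small intestinal IEL. Of the 8 genes 5 were lower in colon IEL by 2-fold or more, against 24.4% of the 12551 genes above the floor, while 5.98% were higher. The median difference was −1.83, against −0.30 for all genes above the floor. With the floor raised to the 75th percentile, the median of all genes was −0.80. Fcgbp differed by −4.32, Reg4 by −3.69, Spink4 by −2.63, Muc2 by −2.16 and Zg16 by −1.4998. Tff3 (−0.99), Agr2 (−0.79) and Clca1 (−0.53) were within 2-fold, and after quantile normalization all 3 turned positive, to 0.04, 0.33 and 0.23. The lowess correction turned Agr2 (0.28) and Clca1 (0.20). The pan-epithelial median was −1.95.

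This comparison depended on which colon IEL array was used. For recolonized against small intestinal IEL, the median difference of the 8 genes was −0.10, against −0.20 for all genes. Clca1 was then higher by 1.17, where 4.76% of the 12379 genes above the floor were higher by 2-fold or more. Fcgbp was lower by 1.22, where 17.9% were lower. Muc2 turned to 0.29, against −2.16 with the unmanipulated array. Reg4 (−0.98), Zg16 (−0.93), Tff3 (0.16), Agr2 (−0.14) and Spink4 (−0.07) were within 2-fold. The enterocyte markers differed by a median of −6.37 between the same arrays, with 12 of 12 lower in recolonized colon IEL.

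Other genes of mucus production were read from lists, whose counts stand beside these shares of all genes above the floor. For recolonized against unmanipulated colon IEL, 6.04% were higher by 2-fold or more and 3.06% lower. Against the LP-labelled array, 34.7% were lower and 10.5% higher in unmanipulated colon IEL, and 15.7% and 8.76% in small intestinal IEL. For unmanipulated colon against small intestinal IEL, 24.4% were lower and 5.98% higher. The first list holds 9 transcription factors of goblet cells, all measured. Between recolonized and unmanipulated colon IEL, 2 of 8 above the floor were higher by 2-fold or more and 0 lower, with a median of 0.53. Klf4, needed for goblet cell differentiation in the mouse colon, was at 5.62 against 3.81, and the ER-linked factor Creb3l1 at 4.83 against 3.55. Foxa1, a forkhead factor, was at 3.62 against 2.84, Gfi1, a zinc finger factor of secretory cells, at 4.87 against 3.89, and Atoh1, which sets the secretory fate, at 4.04 against 3.75. Spdef, which drives goblet cell maturation, was at 4.39 against 4.55, and Foxa3 at 3.92 against 4.66. The difference of Klf4 (1.80) was larger than those of Clca1, Tff3, Agr2 and Zg16, and that of Creb3l1 (1.29) was larger than those of Tff3, Agr2 and Zg16.

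Against the LP-labelled array, 5 of the 9 transcription factors were lower in unmanipulated colon IEL by 2-fold or more. They were Klf4 (−4.30), Foxa1 (−3.54), Atoh1 (−2.83), Creb3l1 (−2.58) and Creb3l4 (−1.91). Spdef differed by −0.20 and Foxa3 by −0.07. As deposited 0 of the 9 were higher, but 3 were after quantile normalization and 4 after the lowess correction, with 5 lower in each case. In small intestinal IEL 6 of 9 were lower than on that array, with Atoh1 at 3.40 against 6.59 and Klf4 at 6.31 against 8.11. Between unmanipulated colon and small intestinal IEL the list had a median of 0.01, with Klf4 lower by 2.50 and Foxa2 higher by 1.60 in colon IEL. That median was 0.66 after quantile normalization and 0.68 after the lowess correction. For the same pair the 8 mucus genes had a median of −1.83 and the list of other goblet cell products one of −0.06, with 5 of 26 higher and 6 lower.

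The second list holds enzymes that build the sugar chains of mucins, with 33 of 35 measured. Between recolonized and unmanipulated colon IEL the median was 0.28. By 2-fold or more, 3 of 29 above the floor were higher, against 6.04% of all genes, and 0 lower. They were B4galnt2, which adds a terminal N-acetylgalactosamine (5.54 against 3.53), Galnt4, which starts O-linked chains (4.61 against 2.99), and B3gnt3 (3.24 against 2.17). Galnt3 was at 3.14 against 3.38, Galnt12 at 3.30 against 2.54, C1galt1, the core 1 enzyme, at 5.24 against 4.86, and Gcnt3, a branching enzyme, at 2.90 against 2.87. B3gnt6, the core 3 enzyme, and the sialyltransferase St6galnac1 were below the floor in both. Against the LP-labelled array, 22 of 31 were lower in unmanipulated colon IEL and 0 higher, with a median of −1.79. After quantile normalization 19 were lower and 1 higher (median −1.17), and after the lowess correction 16 were lower and 3 higher (median −1.29). The largest differences as deposited were those of B4galnt2 (−7.06), B3gnt3 (−4.52), Gcnt3 (−4.43) and Galnt4 (−4.15). In unmanipulated colon IEL, B3gnt3 was below the array median, and Gcnt3 and Galnt4 were below the 75th percentile, so the sizes of those 3 differences are uncertain. The same limit applies to the differences of B3gnt3 and Galnt4 between recolonized and unmanipulated colon IEL. The same list in small intestinal IEL had 18 of 32 lower and 1 higher, with Gcnt3 at 2.60 against 7.30, Fut2, a fucosyltransferase, at 2.001 against 6.09 and the sialyltransferase St3gal4 at 8.37 against 6.54.

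The third list holds genes of protein folding and export in the ER, with 41 of 42 measured, and most of them are used by every secreting cell. Between recolonized and unmanipulated colon IEL, 4 of 38 were higher by 2-fold or more and 2 lower, with a median of 0.35. The shares over all genes were 6.04% and 3.06%. After the lowess correction 2 of the list were higher and 1 lower. Ssr4 (4.91 against 3.32), Ostc (4.28 against 2.83) and Kdelr2 (5.21 against 4.11) were higher, and Sdf2l1 was lower (3.11 against 4.65). Ern2, the ER stress sensor found in mucus-secreting epithelium, was at 2.66 against 2.40 and at 2.39 in small intestinal IEL, near the array medians, and at 5.98 on the LP-labelled array. Against that array 31 of 39 were lower in unmanipulated colon IEL and 0 higher, with a median of −1.64. After quantile normalization 15 were lower and 1 higher (median −0.70), and after the lowess correction 12 were lower and 2 higher (median −0.49). In small intestinal IEL 13 of 39 were lower (8 after the lowess correction), with a median of −0.75, and P4hb, a disulfide isomerase, was at 8.15 against 8.22.

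**Figure D3:**
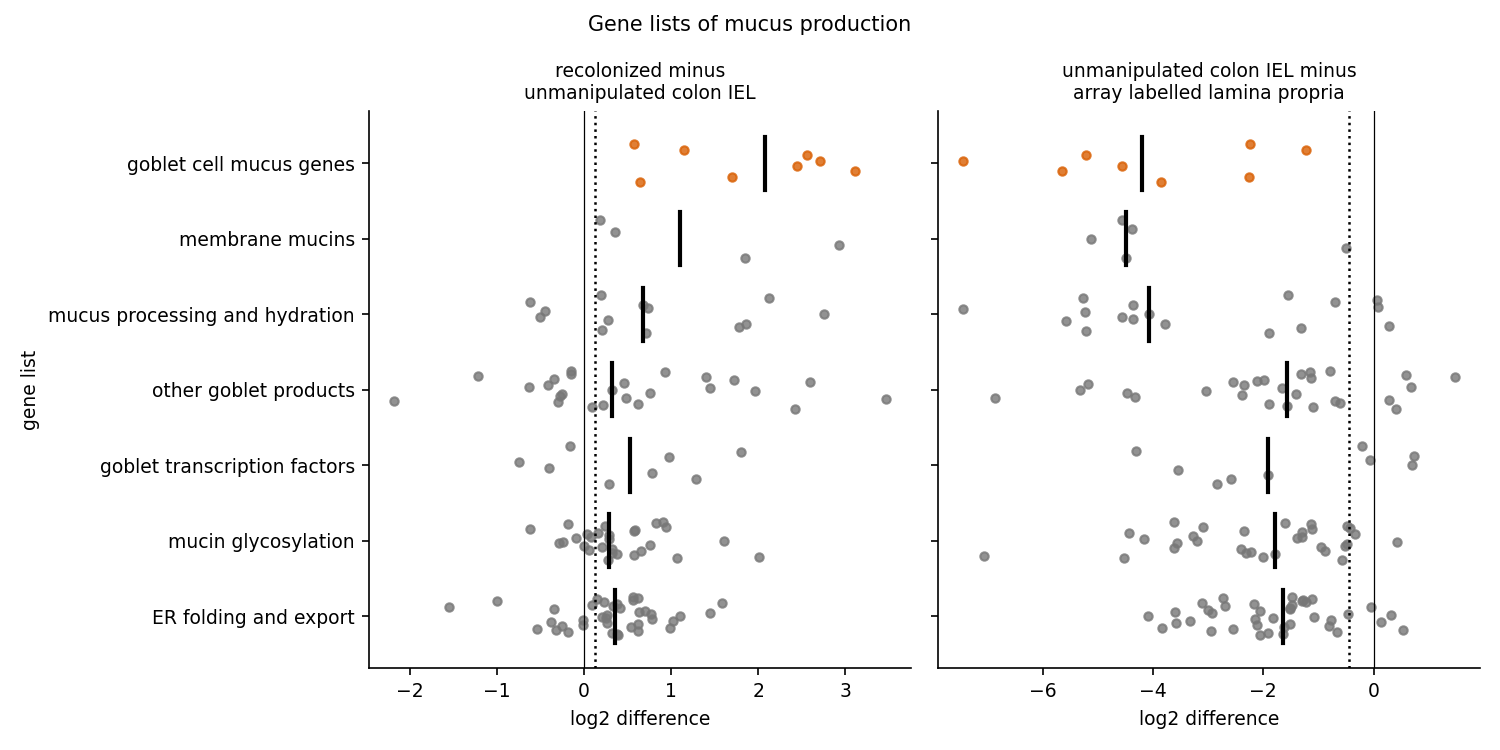
Log2 difference (horizontal axis) of each gene above the floor in 7 gene lists (rows) for recolonized against unmanipulated colon IEL (left) and unmanipulated colon IEL against the LP-labelled array (right). Points are genes, bars are list medians and the dotted line is the median of all genes above the floor. The goblet cell mucus genes have a median of 2.07 on the left. There the lists of transcription factors, glycosylation, ER genes and other goblet cell products have medians between 0.28 and 0.53. The median is 0.68 for mucus processing and hydration and 1.10 for membrane mucins.

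Genes that process or hydrate mucus formed a further list, with 17 of 18 measured. Between recolonized and unmanipulated colon IEL, 4 of 13 were higher by 2-fold or more and 0 lower, namely Slc26a3, a chloride and bicarbonate exchanger of colonocytes (5.57 against 2.82), Tgm3, a transglutaminase that cross-links colonic mucus (5.16 against 3.03), Mep1a (4.39 against 2.52) and Lypd8, a colonic surface protein that holds off motile bacteria (10.30 against 8.52). The median difference of this list was 0.68. In unmanipulated colon IEL, Slc26a3, Tgm3 and Mep1a were below the array's 75th percentile of 3.27, so the sizes of their differences are uncertain. Tgm3 was at 1.95 in small intestinal IEL and at 8.30 on the LP-labelled array. Mep1b, the protease that releases MUC2 from the mouse small intestine, was at 2.08 in recolonized colon IEL, 2.20 in unmanipulated colon IEL, 7.78 in small intestinal IEL and 6.57 on the LP-labelled array. Cftr, the chloride channel of crypts, was at 2.07, 1.79 and 2.67 on the recolonized, unmanipulated and small intestinal IEL arrays and at 7.01 on the LP-labelled array. Against that array 13 of 17 were lower in unmanipulated colon IEL, and 11 of 17 in small intestinal IEL, where 2 were higher. For unmanipulated colon IEL the lowess correction gave 11 lower and 2 higher.

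Other goblet cell products were represented by 29 of 30 listed genes. The lists share genes with the marker lists and are not independent of them. Guca2a and Slc26a3 are also colonocyte markers, and Ang4 and Itln1 are also Paneth cell markers. Between recolonized and unmanipulated colon IEL, 7 of 25 were higher by 2-fold or more and 2 lower, with a median of 0.32. Guca2a, the gut hormone guanylin (7.16 against 3.68), Retnlb, a resistin-like protein that acts on bacteria (5.01 against 2.41), and Ang4, an antimicrobial ribonuclease (9.25 against 6.83), were higher, and the chemokine Ccl9 was lower (3.63 against 5.81). The level of Retnlb in unmanipulated colon IEL was slightly below the array median, so the sizes of its differences from that array are uncertain. Ang4 was highest on the recolonized array, with 8.23 in small intestinal IEL and 6.42 on the LP-labelled array. None of the 8 mucus genes had that order. Retnlb was at 2.001 and Itln1, a lectin shared with Paneth cells, at 8.55 in small intestinal IEL, against 7.58 and 2.09 on the LP-labelled array. Against that array 19 of 27 were lower in unmanipulated colon IEL (12 after the lowess correction), led by Guca2a (−6.85), Oit1 (−5.33), Retnlb (−5.17) and Klk1 (−4.47). Best2, an anion channel of colonic goblet cells, lay below the array medians for all 3 IEL samples and reached 3.88 for the LP-labelled array.

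The other mucins were compared with the median of each array. The 4 other gel-forming mucins, Muc5ac, Muc5b, Muc6 and Muc19, lay between 1.57 and 2.34 on every array, below the array median in all cases. Of the 7 measured membrane mucins, Muc13, Muc3, Muc3a and Muc4 were above the median on every array. Muc13 and Muc3 coat enterocytes. Muc13 was at 8.85, 7.00, 10.23 and 11.49 on the recolonized, unmanipulated, small intestinal and LP-labelled arrays, and Muc3 at 9.0045, 6.08, 9.65 and 11.20. The order of arrays for both was that of Fcgbp, Reg4, Zg16, Agr2 and Spink4. Muc4 lay between 2.49 and 2.68 for all 3 IEL samples, against 7.05 for the LP-labelled array. Muc3a was at 3.87, 3.52, 4.10 and 7.91 in the order used for Muc13. Muc15 was below the median on every array. Between recolonized and unmanipulated colon IEL, the membrane mucins above the floor had a median difference of 1.10. By 2-fold or more, 2 of 4 were higher and 0 lower, against 6.04% and 3.06% of all genes.

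Neighbouring genes on the chromosome were compared, since several members lie in families. In the RefSeq table (GRCm38.p6) Muc2 lies between Muc6 and Muc5ac, which were below the median on all 4 arrays. Clca1 lies between Clca4a and Clca2. Clca4a was at 5.40 in recolonized colon IEL, 3.84 in unmanipulated colon IEL, 7.98 in small intestinal IEL and 8.81 on the LP-labelled array. Clca4b was at 9.43 in small intestinal IEL and 5.65 on the LP-labelled array, the opposite order to Clca1, and Clca3b was at 4.07 and 9.15 on those arrays. Clca2 was below the median on all 4. Whether probes of the related Clca genes pick up each other's RNA was not tested. Tff3 lies next to Tff2 and Tff1. Tff1, a trefoil peptide known from the stomach, was at 3.09 in recolonized colon IEL and highest, at 4.31, in unmanipulated colon IEL, where Tff3 was lowest. Agr3, the neighbour and relative of Agr2, was between 1.29 and 1.65 on every array.

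**Figure D4:**
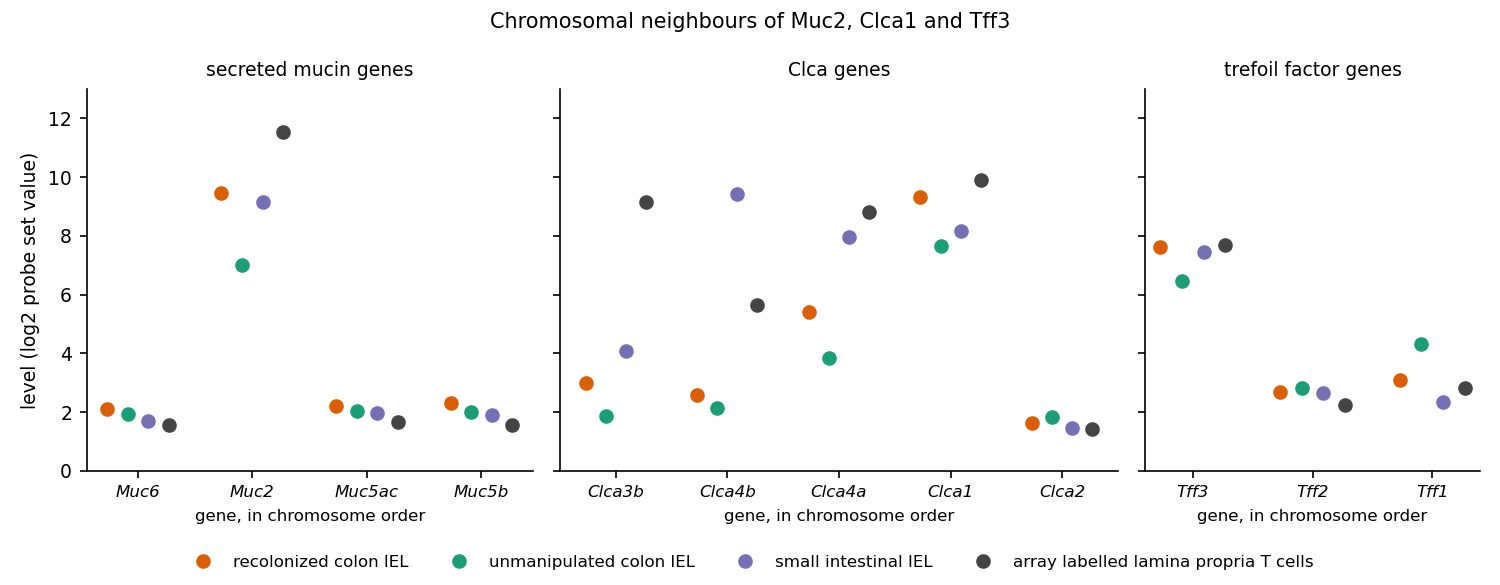
Level (log2 probe set value, vertical axis) on the 4 arrays of secreted mucin, Clca and trefoil factor genes in chromosome order (horizontal axis), 1 point per array. Muc6, Muc5ac and Muc5b lie at or below 2.30 on every array, and Clca4b is highest in small intestinal IEL while Clca1 is highest on the LP-labelled array.

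The genes with the most similar pattern were found by the root mean square distance over the 4 arrays between each gene's profile, centred on its own mean, and the mean profile of the 8 genes. Among 12526 candidate genes the 10 nearest were Ndufa11, a respiratory chain subunit (distance 0.14), Golph3l, a Golgi protein (0.18), Klf4 (0.19), the histone gene H1f2 (0.21), Gfpt1, the entry enzyme of hexosamine synthesis (0.22), Akr1c19 (0.23), Klf6 (0.23), Cdh1 (0.24), Ginm1 (0.25) and Spint2, a protease inhibitor of epithelium (0.25). Of the 8 genes themselves, Muc2 was nearest to their mean (0.25) and Reg4 farthest (1.25). With 4 arrays, many genes come as close as the farther of the 8 genes do, and 5391 candidates were nearer to the mean profile than Reg4 was. Only 10 were nearer than Muc2 was.

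Markers of the other secretory cells of the gut were measured beside the goblet cell genes, since Reg4 is not exclusive to goblet cells. Enteroendocrine markers had median levels of 2.90 in recolonized colon IEL, 2.53 in unmanipulated colon IEL, 3.89 in small intestinal IEL and 3.26 on the LP-labelled array. Chga, their granule protein, was at 3.57, 2.55, 4.20 and 5.45 in the same order. Paneth cell markers, which belong to the small intestine, had a median of 9.20 in small intestinal IEL and between 2.59 and 3.04 on the other arrays, with Defa24 at 9.98 against 1.94 to 3.11. Of these 8 markers, 6 were lower by 2-fold or more in recolonized colon than in small intestinal IEL (17.9% over all genes). Only Ang4 was higher by that much, at 9.25 against 8.23 (4.76% over all genes). The 5 measured tuft cell markers had medians between 2.09 and 2.44.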

How the data were processed

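The authors deposited log2 levels of 41345 probe sets on 4 arrays. Per the submitters' processing notes, Affymetrix Expression Console was used. Version, summarization and normalization of those values were not given in the sources used here. Of these probe sets, 23521 listed 1 gene symbol, 1814 listed several, and the platform's gene table held no entry for 16010. Gene IDs of 23328 matched RefSeq (GRCm38.p6), and 0 symbols changed. Of a gene's single-symbol probe sets, the one brightest on average was used.

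Differences between arrays were computed with Python 3.11.15 and pandas 2.3.3. A gene was counted when its level on the brighter array reached that array's 50th percentile, and called at 2-fold. With 1 array per group no test was possible and the number of arrays limits the precision. The SD over 57 ribosomal protein genes served as a yardstick. The steps were tested on simulated data.

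Named genes are the 8 members, the 10 nearest profiles, the 4 members of a list with the largest difference, and a fixed set (Atoh1, Spdef, Epcam and others); Creb3l4, Muc15, Muc19 and the chromosomal neighbours (Muc6, Muc5b, Clca2, Clca3b, Clca4a, Clca4b, Tff1, Tff2, Agr3) were named after their values were seen. The members and lists were chosen with earlier results of these data known. Alternatives were other floors (25th or 75th percentile, or none), thresholds of 1.5-fold and 3-fold, the mean of probe sets, quantile normalization, centring, a lowess correction (statsmodels 0.14.6, span 0.3) and the recolonized array in place of unmanipulated colon IEL.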

Additional observations from a re-analysis of the deposited data

How the results depend on the processing

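No paired analysis was possible because each group is 1 array. In place of a replicate spread, a median or difference was taken as moved when it changed by more than the SD over ribosomal protein genes. The median difference of the 8 goblet cell genes for unmanipulated colon IEL against the LP-labelled array was −4.20, and became −3.50 with quantile-normalized levels, −3.17 after lowess and −2.32 when the recolonized array was used. For unmanipulated colon against small intestinal IEL it was −1.83, and became −1.15, −1.17 and −0.10 under the same alternatives. With the recolonized array 2 of the 8 genes were past 2-fold in the last comparison, 1 in each direction, against 5 with the unmanipulated array. The other 24 medians and 37 counts of the 8 genes stayed within the ribosomal SD or within 1.5 times. Many of these had no room to move. All 8 genes were above every floor, so the floors could not change them, and the mean of probe sets altered Muc2 only. The floor did move the median of all genes. With the floor at the 75th percentile it was −0.80 for unmanipulated colon against small intestinal IEL. It was 0.26 for recolonized against unmanipulated colon IEL. Against the LP-labelled array it was −1.16 for unmanipulated colon IEL and −0.335 for small intestinal IEL. Of single differences past 2-fold, the sign turned for Tff3, to 0.0832 from −1.23, after the lowess correction (unmanipulated colon IEL against the LP-labelled array) and for Muc2, to 0.29 from −2.16, with the recolonized array (against small intestinal IEL). A further 46 single differences moved by more than the ribosomal SD, and 96 did not. For unmanipulated colon IEL against the LP-labelled array, every gene but Tff3 moved in this way after lowess. Differences within 2-fold turned too. With the recolonized array Clca1 went past 2-fold the other way, to 1.17 against −0.53, and Tff3 was at 0.16 against −0.99. Against small intestinal IEL, Tff3, Clca1 and Agr2 turned under quantile normalization and Clca1 and Agr2 after lowess, and Tff3 turned to 0.09 after lowess for small intestinal IEL against the LP-labelled array. The cause of these changes was not tested.

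Counts over all genes moved past 1.5 times with the fold threshold. For recolonized against unmanipulated colon IEL, 1132 genes passed 2-fold, 3700 passed 1.5-fold and 255 passed 3-fold. For small intestinal IEL against the LP-labelled array these counts were 2975, 5260 and 1551, and for unmanipulated colon against small intestinal IEL 3810, 6809 and 1732. For unmanipulated colon IEL against the LP-labelled array, 5781 passed 2-fold and 3282 passed 3-fold. Scaling also moved the balance of directions. Higher genes made up 66.3% of calls for recolonized against unmanipulated colon IEL as deposited, 51.6% with quantile-normalized levels, 48.2% with centred levels and 46.6% after lowess. For unmanipulated colon IEL they made up 23.2% against the LP-labelled array (42.6%, 47.6% and 46.6% under those scalings) and 19.7% against small intestinal IEL (45.3%, 42.1% and 41.4%). For small intestinal IEL against the LP-labelled array they made up 35.8%, and 46.3% after centring and 50.2% after the lowess correction.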
